A study of Mus musculus with 8 samples.

Results

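The AP-1 family was followed here through 10 mouse genes: Fos, Fosb, Fosl1 and Fosl2 of the Fos family, Jun, Junb and Jund of the Jun family, and the related factors Batf, Batf3 and Atf3. They were taken by gene symbol, and all 10 were found among the 57010 genes measured. The cells were naive CD4 T cells, sorted by flow cytometry from peripheral lymph nodes of wild-type C57BL/6 mice and stimulated for 20 h by plate-bound anti-CD3 and anti-CD28, each at 4 µg/mL, which trigger the antigen receptor and costimulation. Each of 4 mice supplied cells for culture in activating medium alone (control, 4 libraries) and with added iron (FAC in the labels, 4 libraries), so that each mouse gave 1 control and 1 FAC culture. The study asked how iron may stimulate T cell responses. The labels give neither a dose of FAC nor a vehicle in the control cultures, and no culture without activation is among the samples, so every level below is that of activated cells.

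AP-1 factors are basic leucine zipper proteins that bind DNA as dimers. Fos proteins need a Jun partner, whereas Jun proteins can also pair with each other. Fos, Fosb and Jun are classical immediate early genes, transcribed within minutes of a stimulus through serum response factor, MEF2 and CREB-type factors and, for Jun, through AP-1 itself, and their mRNAs are short-lived. In T cells AP-1 acts downstream of MAP kinases and binds beside NFAT at composite sites in cytokine genes. Batf pairs with Jun proteins and binds beside IRF4.

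Library totals were between 25410267 and 37350609 estimated reads, and 3 reads corresponded to 0.0803 to 0.118 CPM (reads scaled to a common library total). The 13 CD4 T cell markers were all expressed, with a summed level of 4329 to 4513 CPM in the control and 4457 to 4623 CPM in the FAC libraries, and 1 of the 13 was called higher. The summed level of 9 B cell markers was at most 0.493 CPM in control and 0.654 CPM in FAC libraries, with Blk and Cr2 among those at 0 in all 8. For 16 myeloid and dendritic cell markers the sums were 2.22 to 2.77 and 2.58 to 3.99 CPM, with Lyz2, C1qa, C1qb, S100a8, S100a9, Siglech and Clec9a at 0. For 2 CD8 T cell markers they were 7.99 to 10.9 and 6.26 to 8.99 CPM, for 6 natural killer cell markers 0.381 to 0.494 and 0.275 to 0.548 CPM, for 11 stromal and endothelial markers 7.43 to 9.6 and 8.78 to 11.5 CPM, and for 6 erythroid markers 0.0544 to 4.15 and 0 to 0.191 CPM. The part of these other cells in the values below was not tested.

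The family spanned a wide range of mRNA levels at 20 h. Levels of different genes were compared as TPM, a unit that accounts for the length of each transcript. In the control cultures Jund led with 231 ± 17 TPM (SD, n = 4, as for all levels below), followed by Junb with 165 ± 5.34 and Batf with 44.9 ± 3.48 TPM. Fosl1 followed at 11.2 ± 2.41, Atf3 at 7.07 ± 0.786, Fosl2 at 6.22 ± 0.499 and Jun at 5.64 ± 1.52 TPM. The lowest were Fos at 2.48 ± 1.13, Fosb at 1.37 ± 0.939 and Batf3 at 0.15 ± 0.128 TPM. Ranges of neighbours in this order overlapped between Atf3 and Fosl2, between Fosl2 and Jun, and between Fos and Fosb, and were separate elsewhere.

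With FAC the upper end of the order was the same, with Jund at 236 ± 25.2, Junb at 150 ± 11.9, Batf at 45.8 ± 1.29 and Fosl1 at 11.5 ± 1.13 TPM. Below them the order differed. Jun stood at 10.7 ± 2.43 TPM, within the range of Fosl1, followed by Fosl2 at 7.53 ± 0.513 and Atf3 at 5.89 ± 0.608 TPM. Fosb at 5.56 ± 2.53 and Fos at 5.03 ± 1.16 TPM could not be separated from each other, and Fosb overlapped Atf3. Batf3 remained last at 0.19 ± 0.113 TPM.

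**Figure D1:**
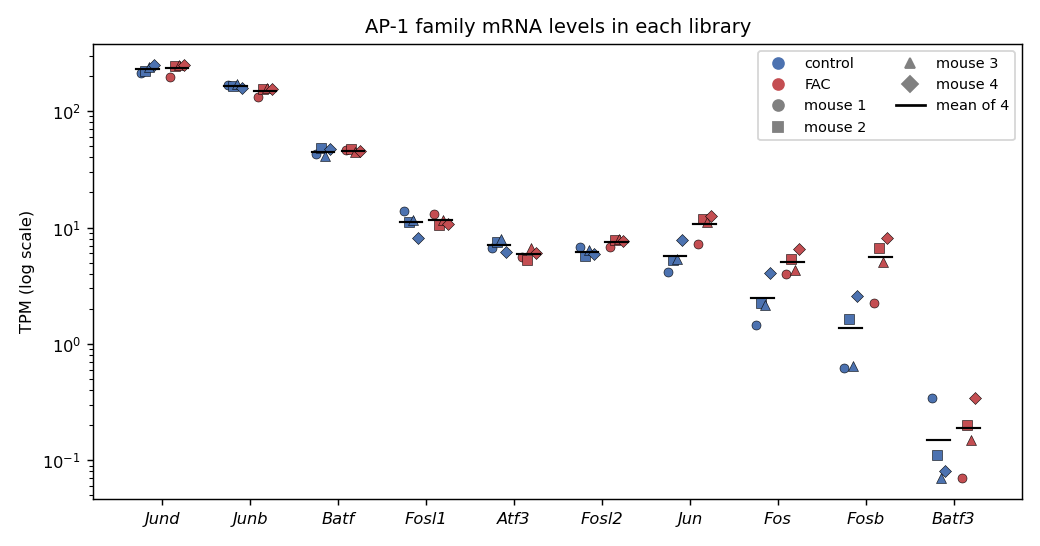
TPM (log scale) of the 10 AP-1 genes in the 4 control (blue) and 4 FAC (red) libraries. Symbols give the mouse and black lines the mean of 4; Fos, Fosb and Jun are higher with FAC in every mouse, whereas Jund, Junb and Batf remain the most abundant members.

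Differences between groups were tested gene by gene on estimated counts with edgeR's quasi-likelihood test, with Benjamini-Hochberg adjustment over 13378 tested genes, and called at an adjusted p under 0.05. CPM are scaled between libraries with TMM factors. Of the 10 members 9 passed the filter on low counts. Fosb and Jun were called higher with FAC, where 2.18% of all tested genes were called higher. None of the 9 was called lower, where 1.10% of all tested genes were. In the same edgeR test 4 members were higher and 2 lower at an unadjusted p under 0.05, as were 2463 of the 13378 tested genes in either direction. DESeq2 called 3 members higher and 1 lower, beside 499 and 298 of all tested genes. Limma-voom called 1 higher and 0 lower, beside 280 and 150 of all tested genes. By direction alone, 4 members (Fos, Fosb, Fosl2 and Jun) had a higher CPM with FAC in all 4 mice, as did 14.7% of tested genes, and 2 (Junb and Atf3) a lower CPM in all 4, as did 15.4%.

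Fosb, whose protein pairs with Jun proteins, showed the largest difference of the family. Its level in control cultures was 1.55, 4.3, 1.61 and 6.55 CPM for mice 1 to 4, from 39 to 186 reads. In FAC cultures it was 5.5, 16.8, 12.5 and 20.2 CPM, from 173 to 549 reads. Fosb was higher with FAC in every mouse, by 3.55-, 3.92-, 7.76- and 3.09-fold, yet the groups overlapped, because the FAC culture of mouse 1 lay below the control culture of mouse 4. The means were 3.5 ± 2.4 and 13.8 ± 6.35 CPM, a log2 change of 1.96 (SE 0.43, edgeR adjusted p = 0.0256). In a fit on the group alone the call ended without control mouse 1, 2 or 3 or FAC mouse 2 or 3, where the edgeR adjusted p was 0.0719, 0.0615, 0.0652, 0.0929 and 0.0765. Fosb ranked 243rd among 13378 genes by p in that fit and 30th once the mouse was included as a replicate block, with an edgeR adjusted p of 9.63e-06.

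Fos, the founding member of the family, was measured at low counts. Its control values were 1.94, 3.13, 2.73 and 4.79 CPM for mice 1 to 4, from 49 to 136 reads. With FAC they were 3.75, 6.47, 5.13 and 8.1 CPM, from 118 to 211 reads. Each mouse again had the higher value with FAC, and the control culture of mouse 4 lay above the FAC culture of mouse 1. The within-mouse ratios were 1.93-, 2.07-, 1.87- and 1.69-fold in CPM and 2.74-, 2.39-, 2- and 1.6-fold in TPM, and the effective length assigned to Fos ran from 1340 to 1889 bases across libraries. On the group alone the difference did not pass the threshold (log2 change 0.89, SE 0.26, edgeR adjusted p = 0.0900). Once the replicate block was included it did (0.91, SE 0.13, edgeR adjusted p = 0.00144), in a fit that called 4.07% of tested genes higher. It also did on the group alone without FAC mouse 1 (0.0373) or without control mouse 4 (0.0317).

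Jun, the main transactivating partner of Fos proteins, was at 9, 11.9, 11.7 and 16.8 CPM in the control cultures of mice 1 to 4. With FAC it was at 15.3, 25.5, 23.5 and 27 CPM. Here too only the FAC culture of mouse 1 fell within the control range. The means were 12.3 ± 3.24 and 22.8 ± 5.2 CPM, and the ratios within mice were 1.7-, 2.14-, 2.01- and 1.61-fold. Jun was called higher (log2 change 0.88, SE 0.18, edgeR adjusted p = 0.0194). As for Fosb, the call ended without control mouse 1, 2 or 3 or FAC mouse 2 or 3, at edgeR adjusted p values of 0.0577, 0.0639, 0.0579, 0.0811 and 0.0765. Jun had an edgeR adjusted p of 1.86e-05 with the replicate block. The calls of Fosb, Fos and Jun all held when any of the 4 mice was left out of the blocked fit, with edgeR adjusted p values up to 5.49e-05, 0.0165 and 0.00107.

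**Figure D2:**
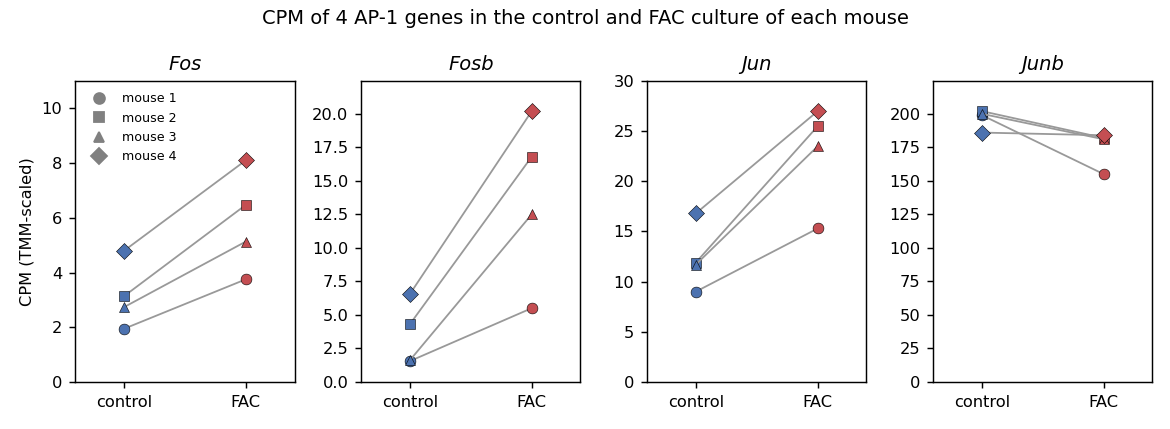
CPM of Fos, Fosb, Jun and Junb in the control (blue) and FAC (red) culture of each mouse, joined by a line. The lines of Fos, Fosb and Jun rise in all 4 mice from a starting level that differs between mice, and those of Junb fall by 0.02 to 0.37 on the log2 scale.

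The spread of Fosb, Fos and Jun between mice was about as wide as the ratio of the group means, which was 3.93, 1.86 and 1.85. In both groups the mice stood in the same order for all 3 genes, with mouse 1 lowest, then mouse 3, mouse 2 and mouse 4. The highest control culture exceeded the lowest by 4.23-fold for Fosb, 2.46-fold for Fos and 1.87-fold for Jun, and among FAC cultures by 3.68-, 2.16- and 1.76-fold. Over the 8 libraries the Pearson correlation of log2 CPM was 0.97 between Fos and Jun, 0.96 between Fos and Fosb, and 0.97 between Fosb and Jun. After subtraction of each group's mean these correlations were 0.96, 0.93 and 0.91. The same libraries carry all genes and each mouse contributes a pair of them, so these values are descriptions. Jund varied with Jun between mice (r of deviations 0.93), and Fosl1 varied opposite to Fos (-0.89), its mouse order being 4, 2, 3 and 1 from low to high in both groups. In bulk RNA, a larger number of cells expressing a gene and more mRNA per cell cannot be told apart.

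The promoters of the 3 genes and of Junb, whose log2 change was -0.17 and not called on the group alone, are shown because these members are themselves regulated by AP-1, CREB-type and MEF2 factors. The sequences are from RefSeq, build GRCm38.p6, 150 bases 5′ to 3′ ending just before the annotated start. Capitals mark TGACG, the first letters of a cAMP response element, in Fos, Fosb and Junb, TATAAA in Fos, and in Jun the AP-1-like TGACATCA followed by a MEF2 motif.
Fos (chr12:85473740-85473889, plus strand): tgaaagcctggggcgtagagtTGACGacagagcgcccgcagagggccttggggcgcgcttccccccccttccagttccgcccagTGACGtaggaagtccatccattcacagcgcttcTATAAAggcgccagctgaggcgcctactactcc
Fosb (chr7:19310046-19310195, minus strand): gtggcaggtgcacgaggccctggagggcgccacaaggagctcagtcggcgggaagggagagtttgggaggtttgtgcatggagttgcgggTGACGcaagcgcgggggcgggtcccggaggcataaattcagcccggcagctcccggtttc
Jun (chr4:95052223-95052372, minus strand): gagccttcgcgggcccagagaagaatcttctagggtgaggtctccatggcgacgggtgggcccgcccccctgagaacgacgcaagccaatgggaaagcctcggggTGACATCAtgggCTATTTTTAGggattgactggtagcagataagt
Junb (chr8:84978749-84978898, minus strand): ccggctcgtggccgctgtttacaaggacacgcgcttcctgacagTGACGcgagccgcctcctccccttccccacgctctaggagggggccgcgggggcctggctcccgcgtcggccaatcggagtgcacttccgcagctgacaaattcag

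A window of 250 bases before the start was searched on both strands for 9 of the 10 members, all but Fosl1. Sequence further upstream was not searched, so a motif absent from this window may lie beyond it. The consensus AP-1 letters TGACTCA, found in 4.46% of 32851 windows, were in 0 of the 9, and neither were TGANTCA (6.75% of windows, which includes TGACTCA), the full cAMP response element TGACGTCA (1.55%), the serum response element (1.47%) or a consensus NF-kB motif (0.14%). CACGTG, the E-box bound by Myc-type factors, was in Batf3 and in 6.02% of windows. The remaining motifs were chosen after the sequences were seen. TGACG, which overlaps TGACGTCA, was in 5 members (Fos, Fosb, Junb, Batf and Atf3) and 17.8% of windows, TGACNTCA in Jun and 7.49%, the MEF2 motif in Jun and Atf3 and 2.92%, and TATAAA in Fos and 12.4%. Fos held TGACG at bases -129 to -125 and again at -66 to -62 from the start, Fosb at -60 to -56 and Junb at -106 to -102. In Jun, TGACATCA lay at -45 to -38 and the MEF2 motif at -33 to -24. Jun lacked TGACG in this window. Binding to these letters was not measured, and their part in the FAC differences was not tested.

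The other Fos family members differed little between groups. Fosl2, which encodes Fra-2, was at 23.8, 22.8, 22.4 and 20.3 CPM in control and 24.5, 24.9, 24.7 and 25.2 CPM in FAC cultures of mice 1 to 4. Every FAC library exceeded every control library, as it did for 6.17% of tested genes. The difference was small and was not called (log2 change 0.15, SE 0.06, edgeR adjusted p = 0.206), and in TPM the ranges touched (5.72 to 6.83 and 6.78 to 7.92). Fosl1, which encodes Fra-1, was at 14.4, 10.1, 11 and 9.86 CPM in control and 11.6, 10.2, 11.5 and 8.92 CPM in FAC cultures. It was higher with FAC in 2 of 4 mice, and its log2 change was -0.09 (SE 0.13, 2 SE either side giving -0.35 to 0.16, edgeR adjusted p = 0.753). The sign turned in TPM, with 11.2 and 11.5 TPM as means. The effective transcript length that the authors' quantification assigned to Fosl1 ran from 1162 to 1709 bases across libraries, whereas that of Jun ran from 3027 to 3038.

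Junb, a Jun protein with weaker transactivation and a regulator of helper T cell differentiation, was at 199, 202, 200 and 186 CPM in the control cultures of mice 1 to 4. With FAC it was at 155, 182, 181 and 184 CPM. All FAC libraries were below all control libraries, as for 4.89% of tested genes, although mouse 4 differed by only 0.02 on the log2 scale and mouse 1 by 0.37. On the group alone Junb was not called (log2 change -0.17, SE 0.05, edgeR adjusted p = 0.108). The fit with the replicate block called it (edgeR adjusted p = 0.0442) as it did 2.80% of genes in that direction, but this call ended without mouse 1 (0.161), mouse 2 (0.0816) or mouse 3 (0.189).

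Jund, the most abundant member, was at 231, 250, 258 and 270 CPM in control and 211, 260, 265 and 268 CPM in FAC cultures. The groups overlapped, 2 of 4 mice were higher, and the log2 change was -0.01 (SE 0.07, 2 SE either side giving -0.15 to 0.13, edgeR adjusted p = 0.965). The FAC culture of mouse 1 had the lowest value among FAC cultures for Fos, Fosb, Fosl2, Jun, Junb and Jund. It also had the largest share of mitochondrial reads of the 8 libraries, 1.84% against 1.22% to 1.74% in the others, and the part of this in the results was not tested.

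Batf, needed for several helper T cell programmes, was at 24.5, 28.8, 23.3 and 26.9 CPM in control and 25.8, 26.8, 24.8 and 25.8 CPM in FAC cultures. Its ranges overlapped and its log2 change was -0.01 (SE 0.07, 2 SE either side giving -0.15 to 0.13, edgeR adjusted p = 0.974). Batf3, its relative best known from dendritic cells, had only 4, 2, 1 and 1 reads in control and 1, 4, 2 and 4 in FAC libraries and did not pass the filter on low counts. Atf3, a stress-induced factor that also pairs with Jun, was at 8.84, 8.62, 8.96 and 8.03 CPM in control and 7.12, 6.75, 7.47 and 7.86 CPM in FAC cultures. In CPM all FAC values were below all control values, as for 4.89% of tested genes, whereas in TPM the ranges overlapped (6.15 to 7.92 and 5.23 to 6.65). The difference in Atf3 was not called (log2 change -0.24, SE 0.09, edgeR adjusted p = 0.198, or 0.161 with the replicate block).

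**Figure D3:**
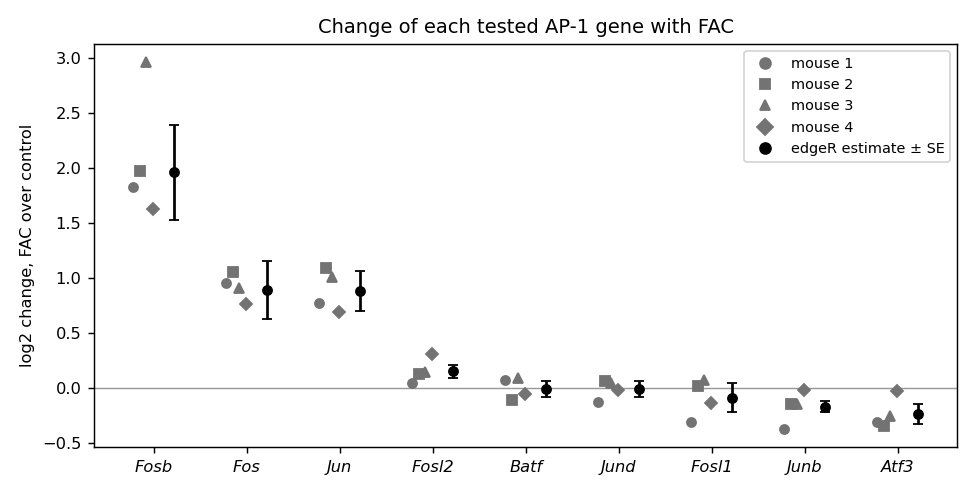
Log2 change with FAC over control of the 9 tested AP-1 genes. Grey symbols are the 4 mice (ratio of CPM) and black points the edgeR estimate with its SE; Fosb lies at 1.63 to 2.96, Fos at 0.76 to 1.05 and Jun at 0.69 to 1.09 in the 4 mice, and the other 6 genes lie between -0.37 and 0.31.

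The composition of the family's mRNA was described as each member's percentage of the summed TPM of the 10 genes. The sum was 475 ± 15 TPM in control and 478 ± 41.8 TPM in FAC libraries. Fos, Fosb and Jun together made up 1.35, 1.95, 1.69 and 2.94% in the control and 3.21, 4.85, 4.12 and 5.42% in the FAC cultures of mice 1 to 4. All FAC shares were above all control shares, and the means were 1.98 ± 0.684% and 4.4 ± 0.953%. In TPM, however, each of the 3 genes was lower in the FAC culture of mouse 1 than in the control culture of mouse 4. The summed TPM of the 10 genes, by which the shares are divided, was 416 and 490 in these libraries. The 3 genes also had the largest changes of the family, so their joint share is a description. Jund accounted for 48.7 ± 2.06% and 49.2 ± 1.11%, and Batf for 9.45 ± 0.769% and 9.65 ± 1.01%. Junb accounted for 34.7 ± 1.87% of control and 31.4 ± 0.324% of FAC mRNA, and each FAC value was below each control value. The TPM ratio of Jun to Junb was 0.0344 ± 0.0104 in control and 0.0705 ± 0.0116 with FAC. That of the 4 Fos family genes to the 3 Jun family genes was 0.0529 ± 0.00455 and 0.0749 ± 0.00435. Jund, Junb and Batf together thus remained the bulk of the mRNA in every library, and shares of mRNA say nothing of protein or of dimers.

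**Figure D4:**
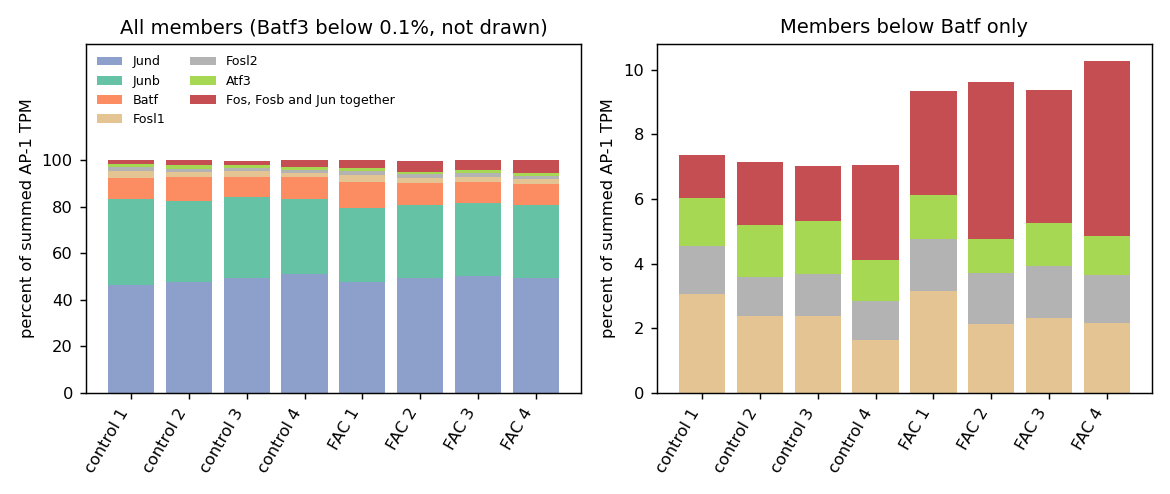
Percent of the summed AP-1 TPM held by each member in the 8 libraries, for all members (left) and for those below Batf (right). Fos, Fosb and Jun together (red) hold 1.35 to 2.94% in control and 3.21 to 5.42% in FAC libraries.

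Among other genes, those closest to the called members were ranked by Pearson correlation of log2 CPM over the 8 libraries, among tested genes whose log2 CPM averaged 1 or more. For Fosb the first 5 were Sh3bp1 (0.987), Map1lc3b (0.985), Hjurp (0.977), Jun (0.967) and Zfp598 (0.964). For Jun they were Hjurp (0.989), Map1lc3b (0.986), Cpsf1 (0.986), Zfp598 (0.983) and Ppp1r15a (0.981). Hjurp, a chaperone of centromeric histone, was called higher, at 129 CPM in control and 163 CPM in FAC cultures (edgeR adjusted p = 0.0172 for a log2 change of 0.34). After subtraction of group means the closest were E2f1 (0.989), Tmem234 (0.988), Pold1 (0.988), Mtbp (0.982) and Chtf18 (0.980) for Fosb, and Slc29a1 (0.998), Jmjd7 (0.994), Pkmyt1 (0.992), Slc19a1 (0.992) and Cit (0.983) for Jun. The 2 sets share no gene, and the second describes differences between mice, not between groups.

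Genes linked to AP-1 were read in 7 lists, beside the 2.18% of all tested genes called higher and 1.10% called lower on the group alone, and 4.07% and 2.80% with the replicate block. At an unadjusted p under 0.05 in edgeR stood 2463 of all 13378 tested genes, both directions together. DESeq2 called 499 of the tested genes higher and 298 lower, and limma-voom 280 and 150. Of 38 other immediate early genes tested, 1 was called higher, 5 lower and 32 not at all (6 higher and 9 lower at an unadjusted p under 0.05 in edgeR), with a median log2 change of 0.00, as over all tested genes. The gene called higher was Ppp1r15a, a stress-induced phosphatase subunit (50.3 ± 4.88 CPM in control and 69.2 ± 7.04 CPM in FAC cultures, edgeR adjusted p = 0.00732 for a log2 change of 0.46), and it was called in all 8 fits that left out a library but not by limma on log2(TPM + 1) over all genes with a TPM. Those called lower were the zinc finger gene Egr2 (46.3 ± 2 to 37.6 ± 4.21 CPM), the nuclear receptor gene Nr4a3 (229 ± 6.63 to 181 ± 14.1 CPM), the MAP kinase phosphatase genes Dusp4 (178 ± 10.5 to 153 ± 5.78 CPM) and Dusp5 (364 ± 12.3 to 317 ± 11.8 CPM), and Gadd45b (50.8 ± 3.15 to 42.4 ± 1.12 CPM), a stress sensor upstream of p38. Their log2 changes were -0.30, -0.34, -0.22, -0.20 and -0.26, with edgeR adjusted p values of 0.0412, 0.00255, 0.0234, 0.0142 and 0.0192.

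Of those, Nr4a3 was called in every fit without a library. The Egr2 call ended in 7 of the 8, all but that without FAC mouse 1 (adjusted p up to 0.133). The call of Dusp4 ended without control mouse 1 or 3 or FAC mouse 2 (up to 0.0891), that of Dusp5 without FAC mouse 2 (0.0613) and that of Gadd45b without control mouse 1 or 3 or FAC mouse 3 (up to 0.0673). Limma on log2(TPM + 1) called none of the 5. With the replicate block 2 of the 38 were called higher and 7 lower, the second higher gene being Dusp1, another MAP kinase phosphatase (18.1 ± 2.33 to 24.5 ± 4.64 CPM, 0.44, edgeR adjusted p = 0.00128, or 0.0785 without the block). Dusp1 was higher in all 4 mice, as were Fos, Fosb and Jun, and 14.7% of all tested genes. Egr1, the zinc finger gene most often read beside Fos, was at 36.8, 32.6, 37.7 and 30.3 CPM in control and 39.8, 32.1, 40.8 and 26.2 CPM in FAC cultures of mice 1 to 4. It overlapped fully, was higher in 2 of 4 mice and was not called (log2 change 0.02, SE 0.12, edgeR adjusted p = 0.947). Dusp1 and Egr1 were singled out after their values were seen.

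Upstream of AP-1, 47 MAP kinase, Ras and serum response factor pathway genes were tested, and 2 were higher and 0 lower (edgeR, 8 and 4 at an unadjusted p under 0.05, and 3 and 1 called by DESeq2). Their median log2 change was 0.02. Mapk8ip3, which encodes a scaffold for the kinase JNK that activates Jun, was at 70.8 ± 5.15 CPM in control and 94.9 ± 12.7 CPM in FAC cultures and was called higher (edgeR adjusted p = 0.0142, or 0.0538 without control mouse 1, for a log2 change of 0.42). Mef2d, of the MEF2 family, was called higher at 140 ± 4.28 and 155 ± 3.8 CPM (edgeR adjusted p = 0.0417 for a log2 change of 0.15). The MEF2 motif was found in the windows of both Jun and Atf3, and a link to Mef2d was not tested. The Mef2d call ended in 7 of 8 fits without a library, all but that without FAC mouse 1 (up to 0.171). The replicate block raised the counts to 5 higher and 3 lower.

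The remaining basic leucine zipper partners, such as Atf4 and Bach2, gave no call among 21 tested (1 higher and 2 lower at an unadjusted p under 0.05 in edgeR, 0 and 1 called by DESeq2, 0 and 0 by limma-voom), with a median log2 change of -0.02. The 20 regulators of Fos and Jun protein turnover or activity also gave none (1 and 2 at an unadjusted p under 0.05 in edgeR, 0 and 0 called by DESeq2 and by limma-voom; median -0.02). In the fit with the replicate block Fbxw7, a ubiquitin ligase subunit that targets Jun, fell from 42.8 to 35.9 CPM (log2 change -0.25, edgeR adjusted p = 0.0109, or 0.193 without the block). Among 13 heat shock genes 0 were called (0 higher and 2 lower at an unadjusted p under 0.05 in edgeR, 0 by DESeq2 and limma-voom; median -0.04).

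Factors that bind beside AP-1 gave 0 higher and 2 lower calls among 14 tested (0 and 3 at an unadjusted p under 0.05 in edgeR, and 0 and 3 called by DESeq2), with a median log2 change of -0.03. Irf8, a relative of the Batf partner Irf4, was called lower, at 213 ± 16.5 CPM in control and 123 ± 4.61 CPM in FAC cultures (edgeR adjusted p = 1.32e-06 for a log2 change of -0.79). Runx1, a T cell lineage factor, was called lower at 58.7 ± 2.93 and 47.7 ± 2.41 CPM (edgeR adjusted p = 0.00903 for a log2 change of -0.30), but not by limma on log2(TPM + 1). Irf4 itself was at 1594 ± 69.5 and 1561 ± 74.6 CPM (-0.03, SE 0.04, edgeR adjusted p = 0.762). Nfatc1 was not called on the group alone (269 and 246 CPM, log2 change -0.13, edgeR adjusted p = 0.0701) but was with the replicate block (0.0236).

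Of 34 tested T cell genes with AP-1 sites described in their regulatory regions, 0 were called higher (edgeR, 1 at an unadjusted p under 0.05, and 0 called by DESeq2) and 10 lower, with a median log2 change of -0.16. The 6 with the smallest adjusted p were Tbx21, the type 1 helper regulator (-4.56), the chemokine gene Ccl4 (-0.45), the inhibitory receptor gene Pdcd1 (-0.31), the cell cycle inhibitor gene Cdkn1a (-0.53), the cytokine gene Lta (-0.50) and the inhibitory receptor gene Lag3 (-0.51). Their edgeR adjusted p values were 1.67e-05, 5.05e-05, 0.000258, 0.000288, 0.000523 and 0.00209, each lower in 4 of 4 mice and called in all 8 fits without a library. Tbx21 was at 4.22 ± 1.48 CPM in control and 0.168 ± 0.115 CPM in FAC cultures. The FAC level is near that of 3 reads, so the size of its change rests on few reads. Including the replicate block, 13 were lower, among them Il2, and 1 was higher, the activation marker gene Cd69 (278 to 311 CPM, 0.16, edgeR adjusted p = 0.0164, or 0.612 without the block). AP-1 binding at these genes was not measured.

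**Figure D5:**
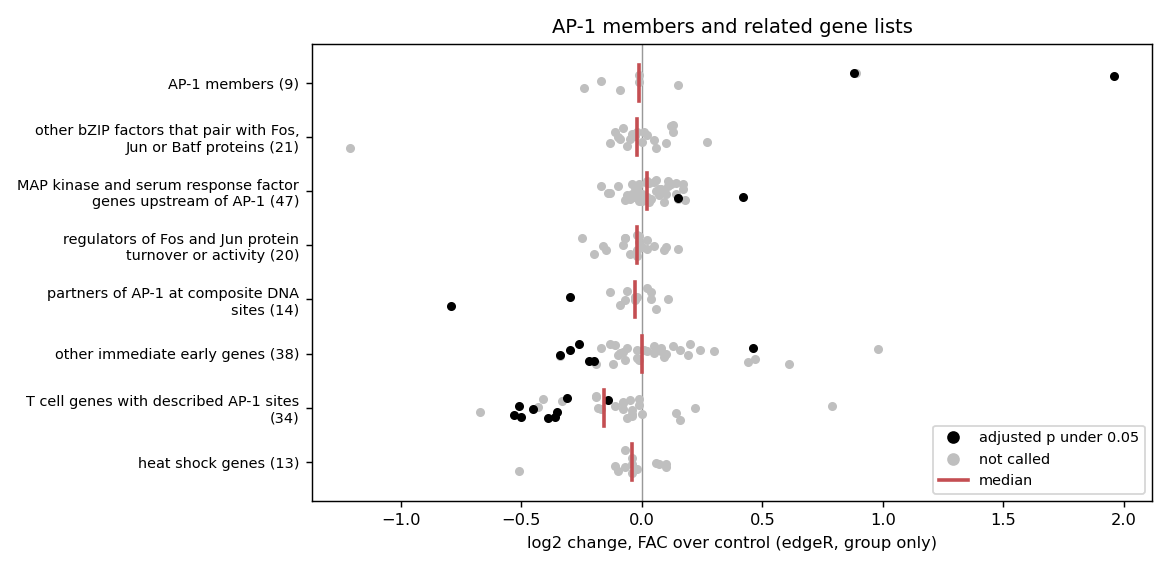
Log2 change with FAC over control (edgeR, group only) of the 9 tested AP-1 members and of the tested genes of 7 related lists, with the number tested in parentheses. Black points have an adjusted p under 0.05, grey points do not, red bars are medians, and 1 gene, Tbx21 at -4.56, lies off the axis.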

How the data were processed

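RNA of 8 cultures of 4 mice was sequenced as stranded mRNA libraries, per the labels' protocols. Build GRCm39 and the tools RSEM 1.3.1, STAR 2.7.6a, DESeq2 1.26.0, DESeq, FastQC and R 3.6.3 are listed in the submitters' processing notes, without roles. Per the file headers, the authors deposited RSEM expected counts, TPM and an effective length in bases for each gene and library. A further deposited table gives the authors' normalised signal for 13751 genes, 9 members among them; its scaling and the strand setting of the counting are not stated. Depth is given with the results, and limits from counts cover counting error only, since reads carry no molecular identifiers.

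Expected counts were rounded to whole numbers, filtered (minimum count 10, minimum total 15; 13378 genes with 99.9% of counts) and tested with edgeR 4.0.16 (R 4.3.3) on the group alone, with TMM factors. The SE was obtained by dividing the absolute change by the square root of F. The script was tested on simulated data. Replicates are cultures of separate mice. By the labels, a mouse number pairs 2 cultures of the same animal. Across tested genes, deviations from group means correlated at 0.137, 0.0165, 0.0647 and 0.139 within mice 1 to 4. Between different mice they correlated at most at 0.0331, which is above the value within mouse 2. Blocked values are given where a call differs. Alternatives were DESeq2 1.42.0, limma 3.58.1 on counts, TPM and signal, no filter, other scaling, effective-length offsets (added after the data were seen) and leaving out libraries or mice.

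The members and gene lists were chosen with earlier results of these data known. All members are named, with each list's called genes (the 6 of smallest adjusted p where over 6 were called) and the 5 genes most correlated with each called member. Symbols came from the deposited table and GENCODE M21, and promoters from RefSeq (GRCm38.p6), of which only the table's own coordinates are given. Protein sequences were not used here. Some listed genes are not reported here by name.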

Additional observations from a re-analysis of the deposited data

Results flagged for a closer look

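In 18 sets of 4 libraries (9 members in each group), the gap of the highest or lowest library to its neighbour was compared with the range of the set, and 3 sets exceeded Dixon's 95% critical value; chance gives about 1 in 20 sets. Junb in the control culture of mouse 4 was at 186 CPM, against 199 to 202 in the other 3. Junb in the FAC culture of mouse 1 was at 155 CPM, against 181 to 184. Jund in the same FAC culture was at 211 CPM, against 260 to 268.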

How the results depend on the processing

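Of 23 alternatives, Fosb, Fos, Jun, Fosl2, Junb and Atf3 turned direction in 0. Fosb was not called by limma-voom (log2 change 2.01, adjusted p = 0.0589), by limma on log2(TPM + 1) (1.45, 0.0811, or 0.244 over all genes with a TPM), log2(TPM + 0.1) (2.03, 0.0856) or the log2 deposited signal (2.08, 0.0566), or by edgeR with effective lengths as offsets (1.97, 0.0545). Jun was not called by limma on log2(TPM + 1) (0.82, 0.0837, or 0.223 over all genes with a TPM), log2(TPM + 0.1) (0.91, 0.0836) or deposited signal (0.88, 0.0548). Fos was called by DESeq2 (0.89, 0.0140), without the count filter (0.87, 0.00124), with the replicate block (0.91) and with that block and length offsets (1.04, 0.0196). Junb was called by DESeq2 (-0.17, 0.0455), without the filter (-0.18, 0.0146) and with the replicate block (-0.17). The block changed the call of no member other than Fos and Junb. Members called higher numbered 1 with limma-voom or length offsets and 0 with limma on TPM or signal, and those called lower 1 with DESeq2, the replicate block or no filter. Small changes turned sign: Fosl1 to 0.06, 0.07 and 0.06 in the 3 TPM fits, 0.02 with deposited signal, and 0.01 and 0.02 with length offsets without and with the block; Jund to 0.02 and Batf to 0.03 in the TPM fits. In the 3 TPM fits the median log2 change over all genes was itself 0.03, 0.04 and 0.02. The cause of the turned signs was not tested.

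Leaving out a library or mouse gave log2 changes of 1.71 to 2.42 for Fosb, 0.76 to 1.06 for Jun, 0.70 to 1.15 for Fos, -0.23 to -0.11 for Junb, -0.15 to 0.04 for Fosl1, -0.05 to 0.07 for Jund and -0.06 to 0.05 for Batf, and 0 to 3 members called higher and 0 to 1 lower. In shares of scaled counts, not corrected for length, Fos, Fosb and Jun held 3.52% and 7.78% (control and FAC), Junb 36.7% and 32.6%, Batf 4.83% and 4.84%, and Jund 46.7% with FAC.

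Over all genes, 291 were called higher and 147 lower. The counts were 499 and 298 with DESeq2, 450 and 286 without the filter, 544 and 375 with the replicate block, 112 and 32 with limma on log2(TPM + 1), 108 and 30 on log2(TPM + 0.1), 30 and 17 over all genes with a TPM, 99 and 57 on the deposited signal, 126 and 61 with length offsets and 143 and 74 with these and the block. Without a library they were 80 to 405 and 65 to 243. Immediate early genes called lower numbered 0 in the TPM fits, 1 with deposited signal, and 2 and 3 with length offsets without and with the block, and those called higher 2 with DESeq2, no filter or either block fit and 0, without Ppp1r15a, over all genes with a TPM. MAP kinase genes called higher numbered 5 with the block, 1 without the filter or with deposited signal and 0 over all genes with a TPM, and lower 3 with the block and 1 with DESeq2 or its size factors. Composite-site partners called lower numbered 1 in the TPM, signal and length-offset fits, turnover regulators 2 with the block or no filter, leucine zipper partners 1 with DESeq2, and T cell genes 4 over all genes with a TPM (1 higher with the block). Without a library or mouse the counts higher and lower were 1 to 3 and 2 to 7 for immediate early genes, 0 to 3 and 0 to 2 for MAP kinase genes, 0 to 1 and 2 to 3 for partners, 0 to 1 and 0 to 2 for turnover regulators, 0 and 0 to 1 for leucine zipper genes, 0 to 1 and 7 to 13 for T cell genes, and 0 and 0 to 2 for heat shock genes. Batf3, at 1 to 4 reads per library, entered 2 fits without a filter (log2 change 0.43, SE 1.05, adjusted p = 0.872 in edgeR, and 0.05, adjusted p = 0.856, with limma on log2(TPM + 1)), and a difference was not detectable at this depth.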
